A study of Mus musculus with 43 samples.

Results

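Interferon-stimulated genes are the transcripts that cells switch on after an interferon binds its receptor. They were followed here as 41 mouse gene symbols, taken from a list of names and kept where they occurred in the deposited count matrices. All 41 were present, out of 26264 genes in each of 6 tables. The rule used no measured value, but the list was chosen with earlier results of these data known. Type I interferons signal through the Ifnar1 and Ifnar2 receptor chains and the kinases Jak1 and Tyk2 to a complex that holds Stat2 and Irf9 and binds the interferon-stimulated response element (ISRE) in DNA. Interferon gamma acts mainly through a different site, the gamma-activated sequence (GAS). In fat, as elsewhere, the products sense viral RNA, block viral translation and replication, tag proteins with Isg15 and load peptides for display to T cells.

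The study measured polyadenylated RNA in 43 libraries of 15 groups, around Runx1 and Runx2, transcription factors that share the Runt DNA-binding domain and are best known from blood and bone. Cultures labelled as mature brown adipocytes of a brown fat cell line came in 3 tables. The first held cultures overexpressing Runx2, cultures overexpressing Runx1 and controls labelled OEV (wild type), with 3 libraries each. The second held cultures labelled as knockouts of both genes, of Runx1 and of Runx2, and a wild-type knockout control, also with 3 libraries each. The third held 2 libraries of cultures with a Runx2 lacking a stretch labelled IDR and 2 with full-length Runx2, and no culture without added Runx2. Inguinal white fat came in the other 3 tables, with 3 libraries a group. These were Adipoq-cre Runx1 knockout fat against Runx1 flox fat, Adipoq-cre Runx2 knockout fat against Runx2 flox fat, and Runx1 knockout fat against wild-type fat in a set labelled HFD, for which no Cre driver is labelled. Adipoq-cre acts in adipocytes, so the other cells of such fat keep the gene. No ages are labelled, and nothing in the labels says whether the libraries of a group came from separate cultures or animals, so p-values measure only the spread between these libraries.

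Promoter sequence was available in RefSeq (mouse build GRCm38.p6) for 32 of the 41 genes, as 37 windows of 300 bases, from 250 bases before each start site to 50 after it. Oas2, Mx1, Mx2, Usp18, Rtp4, Dhx58, Zbp1, Parp9 and Parp14 were not matched. Each window was searched on both strands for the ISRE core GAAANNGAAA, the GAS core TTCNNNGAA and the RUNX core TGTGGT. The ISRE core was found in 16 of the 32 genes and in 45.9% of the 37 windows, against 3.44% of all 32851 mouse promoter windows of that length. The GAS core was found in 8 genes and 21.6% of their windows, against 8.3% of all windows, and the RUNX core in 4 genes and 10.8% of their windows, against 16.8% of all windows. The ISRE and GAS matches overlapped in 1 gene. Of the 32 genes, 10 held no match to any of the 3 cores. A match describes the letters in these windows and is no measurement of binding.

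Isg15 (chr4:156200819-156200978, minus strand), Ifit1 (chr19:34640729-34640888, plus strand), Oas1a (chr5:120907526-120907685, minus strand) and Igtp (chr11:58199396-58199555, plus strand) are shown because their transcripts rose in both overexpression groups and each window holds the ISRE core. Capitals mark a match on either strand, and each stretch runs 5′ to 3′ along its gene and ends just before the start site. Isg15 has 3 overlapping ISRE cores, 78, 72 and 66 bases before the start, and Ifit1 has 2 on the opposite strand, 104 and 85 bases before it. Oas1a has ISRE cores 20 and 14 bases before the start and a GAS core 98 bases before it, and Igtp has a GAS core at 45 bases and an ISRE core at 34.
Isg15: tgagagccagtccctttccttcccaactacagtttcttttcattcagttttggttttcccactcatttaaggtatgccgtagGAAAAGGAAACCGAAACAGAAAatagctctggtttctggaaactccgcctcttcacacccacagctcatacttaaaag
Ifit1: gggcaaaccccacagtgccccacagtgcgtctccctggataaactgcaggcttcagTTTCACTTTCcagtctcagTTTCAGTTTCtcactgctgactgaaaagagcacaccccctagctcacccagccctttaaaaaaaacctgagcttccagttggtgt
Oas1a: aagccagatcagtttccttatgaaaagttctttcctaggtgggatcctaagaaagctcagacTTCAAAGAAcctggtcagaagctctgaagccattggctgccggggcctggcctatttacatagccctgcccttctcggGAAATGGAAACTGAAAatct
Igtp: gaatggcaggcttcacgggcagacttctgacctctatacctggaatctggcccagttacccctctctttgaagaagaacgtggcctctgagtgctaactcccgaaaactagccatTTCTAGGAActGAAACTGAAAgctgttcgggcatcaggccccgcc

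Gbp2 (chr3:142620413-142620662, plus strand) and Stat2 (chr10:128270248-128270497, plus strand) are the pair whose windows held both an ISRE and a RUNX core. The ISRE core lies 59 bases before the start in Gbp2 and 222 before it in Stat2, and the RUNX core 226 and 68 bases before it. Oasl2 (chr5:114896774-114896933, plus strand) is shown because it had no ISRE or GAS core in its window and a RUNX core 106 bases before the start. Irf1 (chr11:53769854-53770013, plus strand) had a GAS core 90 bases before the start and neither of the other cores, and was the member that fell in Runx1-overexpressing cultures. Capitals again mark the matches.
Gbp2: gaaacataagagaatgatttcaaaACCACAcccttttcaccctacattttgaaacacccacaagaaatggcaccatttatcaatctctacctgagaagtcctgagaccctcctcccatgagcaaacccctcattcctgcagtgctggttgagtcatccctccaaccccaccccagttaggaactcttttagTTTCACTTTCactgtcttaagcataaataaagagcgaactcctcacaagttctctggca
Stat2: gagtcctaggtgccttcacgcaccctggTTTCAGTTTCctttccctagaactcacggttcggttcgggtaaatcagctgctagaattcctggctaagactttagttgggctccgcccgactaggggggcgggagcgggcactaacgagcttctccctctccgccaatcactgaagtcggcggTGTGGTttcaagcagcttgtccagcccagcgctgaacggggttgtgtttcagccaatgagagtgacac
Oasl2: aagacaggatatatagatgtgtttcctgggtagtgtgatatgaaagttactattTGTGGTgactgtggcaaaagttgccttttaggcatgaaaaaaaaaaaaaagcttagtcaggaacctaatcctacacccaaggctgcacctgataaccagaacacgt
Irf1: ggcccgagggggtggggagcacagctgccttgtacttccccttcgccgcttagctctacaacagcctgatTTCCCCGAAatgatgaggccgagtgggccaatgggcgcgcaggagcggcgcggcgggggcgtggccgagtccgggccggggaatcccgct

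**Figure D1:**
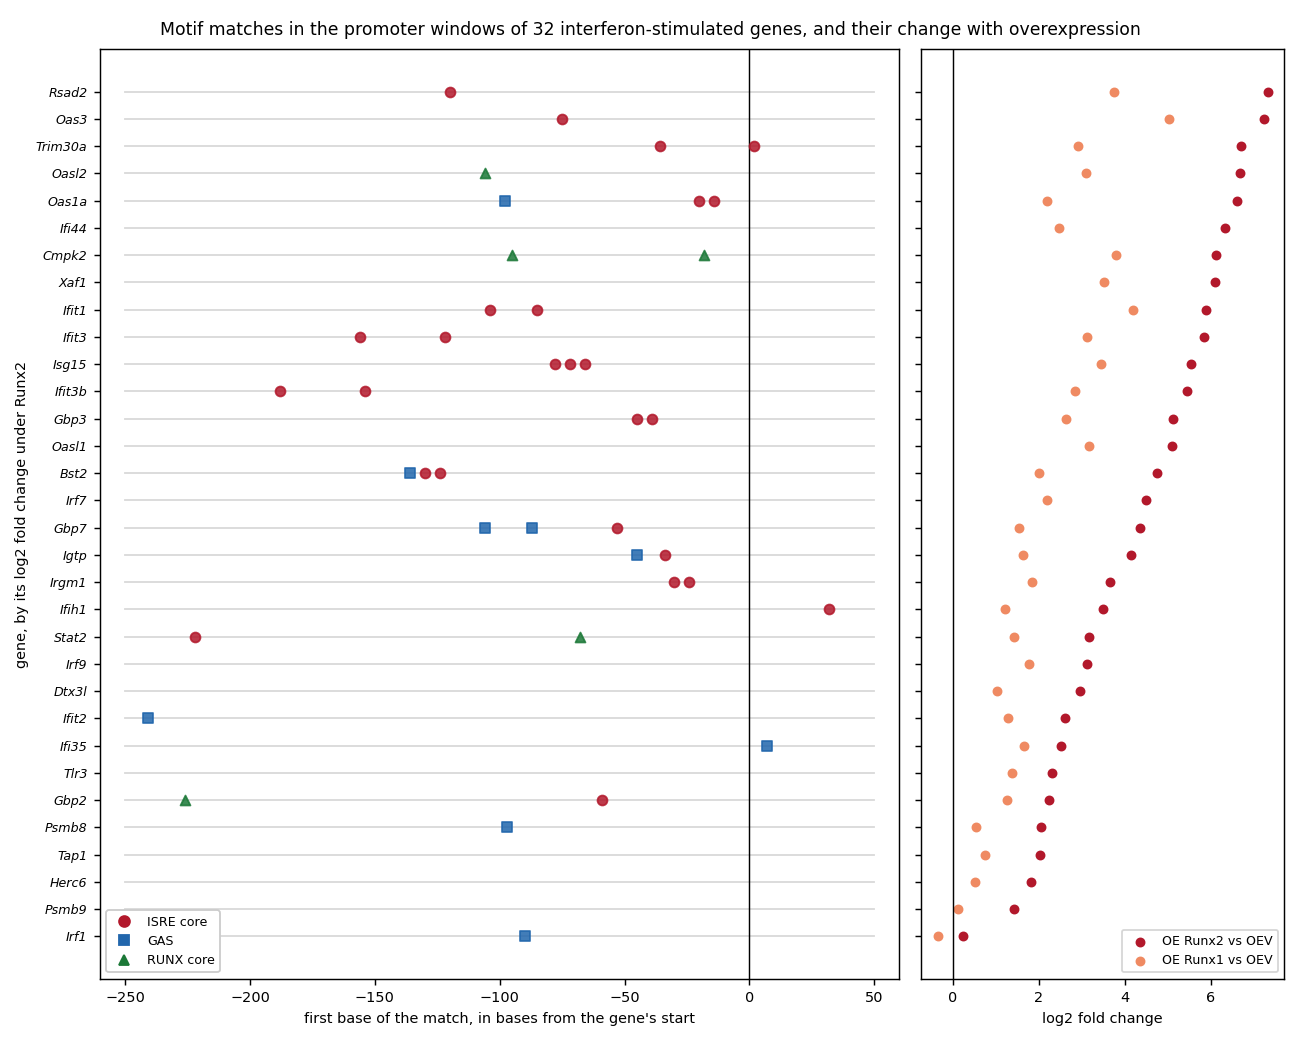
Matches to the ISRE, GAS and RUNX cores in the promoter windows of the matched genes, by distance from the start site in bases (x axis), 1 line a gene. The ISRE matches lie within 160 bases of the start in most of the 16 genes that hold one, and 10 of the 32 genes have no mark.

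Levels are given as counts-per-million values scaled by edgeR's TMM factors (CPM). Library totals ran from 28.1 to 52.2 M counts. Runx2 averaged 35.2 times its control level in Runx2-overexpressing cultures, where Runx1 was also 5.42 times its control level, and Runx1 was 13.2 times its control level in Runx1-overexpressing cultures. In the cultures labelled as knockouts, counts per gene of Runx1 and Runx2 did not fall (log2 differences between -0.15 and 0.27), so these cultures are named by their labels throughout. Counts per gene do not show which exons were deleted. Runx1 in Adipoq-cre Runx1 knockout fat (log2 difference -0.62, edgeR adjusted p = 0.078), Runx2 in Adipoq-cre Runx2 knockout fat (-1.19, 0.25) and Runx1 in HFD knockout fat (-0.30, 0.95) did not pass the test. By DESeq2 the first passed (adjusted p = 0.03) and the others did not. Its knockout libraries, at 20.7 to 21.4 CPM, lay below the flox ones, at 25.3 to 42.8 CPM. Runx1 was also lower in Adipoq-cre Runx2 knockout fat, without overlap (-1.28, adjusted p = 0.22 by edgeR and 0.019 by DESeq2). Adipocyte markers were high in every group, at a sum of 8973 to 21244 CPM over 7 genes in the cultures. The 4 brown adipocyte markers Ucp1, Cidea, Cox8b and Elovl3 summed to 3.88 to 5.89 in Runx2-overexpressing, 15.1 to 33.4 in Runx1-overexpressing and 170 to 287 in OEV cultures. Some libraries stood apart. Cardiac muscle markers reached 1449 in Runx1-overexpressing replicate 3 and 94 and 379 in OEV replicates 1 and 2, and skeletal muscle markers passed 1000 in 4 fat libraries: Runx1 knockout replicates 2 and 3, Runx1 flox replicate 2 and Runx2 flox replicate 3.

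Overexpression of either factor went with a higher level of nearly the whole list. In Runx2-overexpressing cultures all 41 genes were higher than in OEV cultures, by a median of 5.08 on the log2 scale, against 0.03 over all genes tested. In Runx1-overexpressing cultures 38 of the 41 were higher and 1, Irf1, was lower, with a median log2 difference of 2.19 against 0.06 over all genes. All 41 were also higher in Runx2- than in Runx1-overexpressing cultures, by a median of 2.29 and by 0.59 at least. These counts are at an adjusted p under 0.05 in edgeR's quasi-likelihood test with Benjamini-Hochberg adjustment over all genes tested, the rule for every call in the text. Of all 14661 genes tested, 31.3% were called higher with Runx2, 28.2% higher and 25.8% lower with Runx1, and 18.9% higher with Runx2 than with Runx1. The comparisons of Runx2 and of Runx1 with OEV share the same 3 control libraries. In bulk RNA, more cells with a transcript and more of it per cell cannot be told apart.

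**Figure D2:**
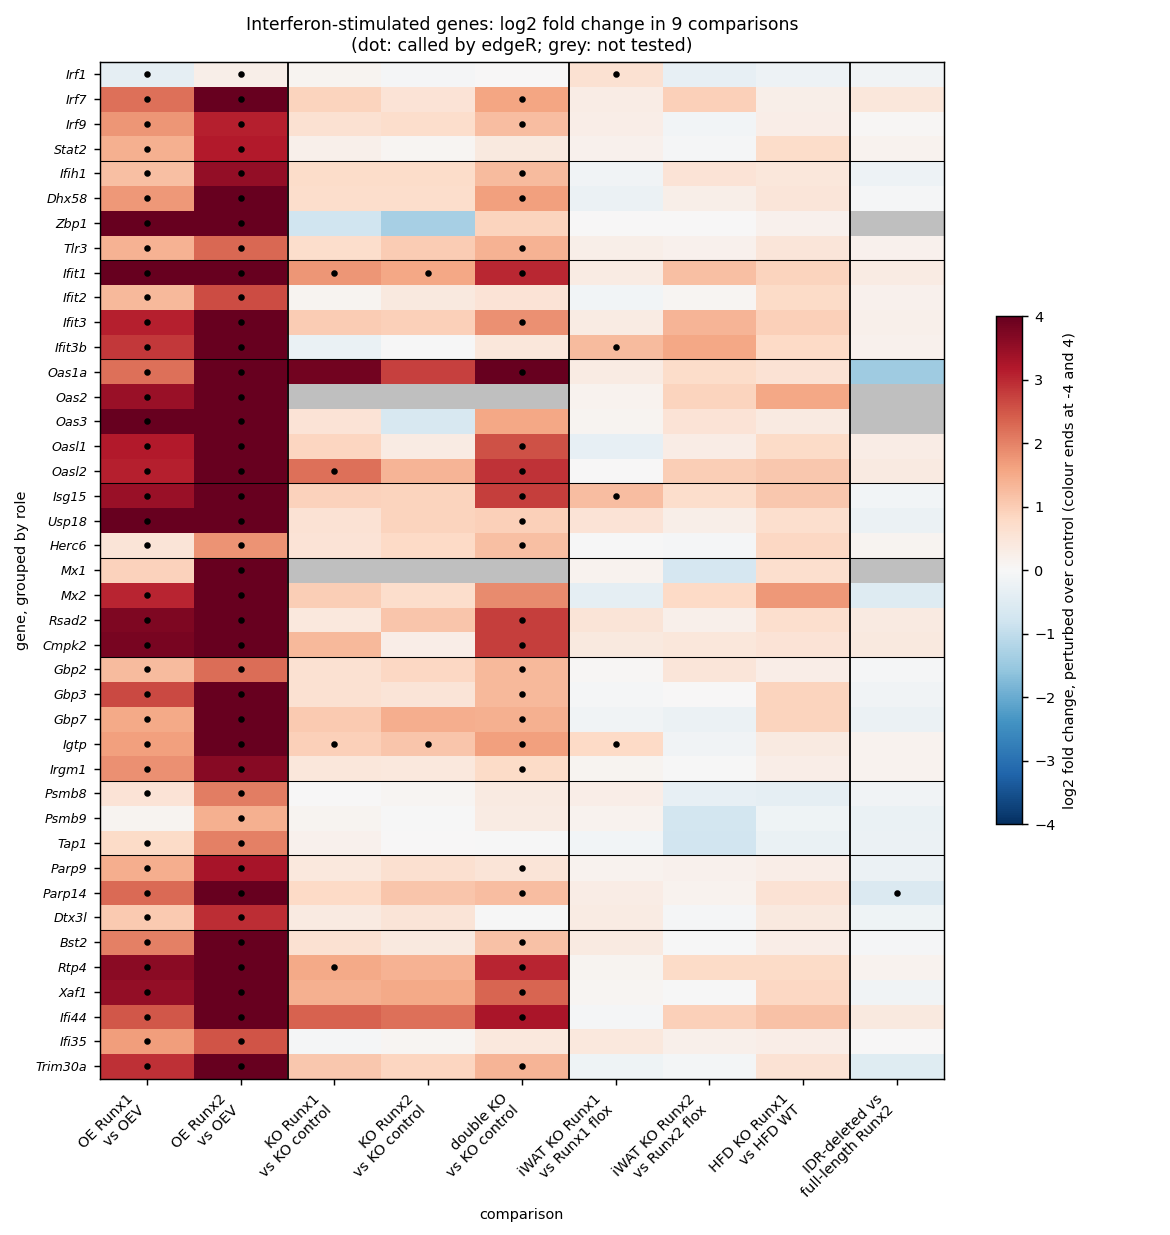
Log2 difference of each of the 41 genes (rows, by role) in each perturbed group against its control (columns), as fitted by edgeR, with a mark on those past an adjusted p of 0.05. The overexpression columns are filled in nearly every row, the double-knockout column in 27 of 39, and the single-knockout and fat columns in at most 4.

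Among the transcription factors, Irf7, which drives the later wave of interferon production, had 174, 135 and 127 CPM with Runx2 and 37.4, 28.7 and 22.6 CPM with Runx1, against 6.06, 6.65 and 6.55 CPM in OEV cultures. The 3 groups did not overlap, and the log2 differences from OEV were 4.50 ± 0.2 with Runx2 and 2.20 ± 0.18 with Runx1 (SE; adjusted p 8.7e-09 and 2.4e-06, edgeR). Irf9, the DNA-binding part of the type I complex, had 137, 134 and 121 CPM with Runx2, 54.7, 51.1 and 48.5 CPM with Runx1 and 12.9, 17 and 15.3 CPM in OEV cultures, again in 3 separate ranges. Stat2, the subunit that carries its activation domain, had 262, 267 and 239 CPM with Runx2 and 80.6, 64.5 and 84.8 CPM with Runx1, against 28, 29.6 and 27.8 CPM in OEV cultures (log2 differences 3.17 ± 0.11 and 1.43 ± 0.11). Irf1, which is induced mainly through GAS sites, went apart from them, at 62, 53.7 and 58 CPM with Runx2, 37.8, 40.3 and 37 CPM with Runx1 and 51.1, 45.5 and 49.9 CPM in OEV cultures. It rose by 0.24 ± 0.091 with Runx2 (adjusted p = 0.036, edgeR) and fell by 0.35 on the log2 scale with Runx1 (SE 0.092, adjusted p = 0.0074). The rise with Runx2 did not pass without any 1 of 5 of the 6 libraries compared. Without the libraries holding cardiac muscle transcripts, which leaves 1 OEV library, the difference was 0.21.

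All 4 sensors of foreign nucleic acid rose in both groups. Dhx58 (LGP2), an RNA helicase that tunes the cytosolic sensors, had 89.4, 76.8 and 68.4 CPM with Runx2, 18.4, 15.8 and 14.1 CPM with Runx1 and 5.07, 4.63 and 4.78 CPM in OEV cultures. Zbp1, a sensor of left-handed nucleic acid, was nearly absent from OEV cultures. It had 1133, 1035 and 1432 counts with Runx2 and 128, 148 and 109 counts with Runx1, against 0, 0 and 4 counts in OEV cultures. Summed over libraries and corrected for depth, that was 820 times the OEV level with Runx2 (95% interval 320 to 3012) and 86.8 times with Runx1 (33.6 to 320). Such intervals cover counting error only, and since 71.1 to 81.9% of the counts from 1 to 19 in a library were even, read mates may have been counted one by one, which would make them too narrow. Tlr3, the endosomal sensor of double-stranded RNA, changed least among the sensors with Runx2, at 10.1, 11.8 and 11.5 CPM with Runx2, 5.39, 5.27 and 7 CPM with Runx1 and 2.5, 1.88 and 2.38 CPM in OEV cultures. Its log2 differences were 2.31 ± 0.19 and 1.38 ± 0.19 (adjusted p 1.1e-06 and 9.5e-05, edgeR). Ifih1 (MDA5), which senses long double-stranded RNA, rose by 3.50 with Runx2 and 1.21 with Runx1.

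The proteins that hold back viral translation rose in both groups without exception. Ifit1, which binds viral RNA lacking host cap methylation, had 296, 333 and 337 CPM with Runx2 and 112, 97.2 and 90.8 CPM with Runx1, against 5.14, 4.36 and 6.75 CPM in OEV cultures. Every library of each group lay apart from every library of the others (log2 differences 5.88 ± 0.17 and 4.19 ± 0.16, adjusted p 5.9e-10 and 1.2e-08, edgeR). Ifit2, Ifit3 and Ifit3b rose by 2.61, 5.85 and 5.45 with Runx2 and by 1.29, 3.12 and 2.84 with Runx1; Ifit3 and Ifit3b are near-identical neighbours, so how their reads were divided is uncertain. The oligoadenylate synthetases make the signal that activates RNase L. Oasl2 had 182, 182 and 162 CPM with Runx2, 16.8, 12.4 and 14.7 CPM with Runx1 and 1.65, 1.48 and 1.9 CPM in OEV cultures, with log2 differences of 6.69 ± 0.16 and 3.11 ± 0.15 from OEV and 3.58 ± 0.13 between the overexpression groups. Oas3 had 158, 127 and 149 counts with Runx2 and 16, 32 and 42 counts with Runx1, against 0, 2 and 0 counts in OEV cultures. That was 198 times the OEV level with Runx2 (95% interval 54.4 to 1638) and 40.6 times with Runx1 (10.9 to 340). Oas1a, Oas2 and Oasl1 rose by 6.60, 7.89 and 5.09 with Runx2 and by 2.19, 3.44 and 3.18 with Runx1.

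Isg15, the ubiquitin-like protein of the response, had 277, 193 and 187 CPM with Runx2, 61.5, 52.5 and 39.8 CPM with Runx1 and 4.61, 4.16 and 5.2 CPM in OEV cultures (log2 differences 5.55 ± 0.22 and 3.45 ± 0.21). Usp18, the protease that removes Isg15 and damps the type I receptor, had 146, 125 and 116 CPM with Runx2, 27.8, 22.7 and 17.9 CPM with Runx1 and 1.38, 1.48 and 1.3 CPM in OEV cultures. For both genes the 3 groups lay wholly apart, and adjusted p against OEV was at most 2e-07 (edgeR). Herc6, the ligase that attaches Isg15 in mice, rose least of the 3, at 35.4, 41.1 and 44.3 CPM with Runx2, 17.3, 13 and 19.3 CPM with Runx1 and 11.3, 8.79 and 14.4 CPM in OEV cultures. The Runx1 and OEV libraries overlapped for Herc6. Its Runx1 call (0.52, adjusted p = 0.037, edgeR) was lost with the compared groups alone (0.52, 0.061) and without OEV replicate 2 (0.35, 0.14), among others. Without the cardiac muscle libraries, which leaves OEV replicate 3 as the only control, its difference was 0.07. That control was the highest OEV library for Herc6.

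Cmpk2, a nucleotide kinase encoded beside viperin (Rsad2), had 65.2, 64.7 and 63.7 CPM with Runx2 and 14.1, 10.8 and 13.3 CPM with Runx1, against 0.725, 1.07 and 0.95 CPM in OEV cultures. Rsad2, which makes a chain-terminating nucleotide, rose by 7.33 with Runx2 and 3.74 with Runx1, and Mx2 by 6.59 and 3.06. Mx1, a GTPase that blocks viral nucleoproteins, separated the factors: it had 15.4, 13.8 and 12.8 CPM with Runx2, and 0.734, 0.253 and 0.561 CPM with Runx1, against 0.428, 0.201 and 0.2 CPM in OEV cultures. The Runx1 and OEV libraries overlapped (log2 difference 0.92 ± 0.41, adjusted p = 0.078, edgeR), while the difference of Runx2 from Runx1 was 4.75 ± 0.37 (adjusted p = 4.1e-06), the largest of the 41.

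The interferon-inducible GTPases attack the vacuoles in which pathogens live. Gbp2 had 52.6, 54.7 and 52.8 CPM with Runx2, 25.9, 25 and 31 CPM with Runx1 and 11, 11.4 and 11.6 CPM in OEV cultures. Gbp3 had 282, 285 and 275 CPM with Runx2, 55.4, 43.4 and 50.7 CPM with Runx1 and 8.24, 9.3 and 6.53 CPM in OEV cultures. Igtp (Irgm3) had 87, 83.7 and 78.5 CPM with Runx2, 15.5, 13.8 and 14.5 CPM with Runx1 and 4.98, 4.56 and 4.5 CPM in OEV cultures. No group overlapped another for these 3 genes, and all 5 of the GTPases rose in both groups, by 2.24 to 5.13 with Runx2 and by 1.27 to 2.64 with Runx1.

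Antigen processing had the smallest median log2 difference of the 10 role groups, 2.02 with Runx2 and 0.54 with Runx1. Psmb8 and Psmb9 are the catalytic subunits of the immunoproteasome, and Tap1 carries peptides into the endoplasmic reticulum. Tap1 had 223, 199 and 185 CPM with Runx2, 92.6, 84.8 and 73.7 CPM with Runx1 and 50.3, 49.6 and 49.8 CPM in OEV cultures, in separate ranges (2.02 ± 0.11 and 0.75 ± 0.1). Psmb8 had 48.4, 33 and 36 CPM with Runx2, 15.9, 13.9 and 11.2 CPM with Runx1 and 9.03, 10 and 9.25 CPM in OEV cultures. Its call with Runx1 (0.54, adjusted p = 0.018, edgeR) was lost when Runx1-overexpressing replicate 1 (0.40, 0.093) or OEV replicate 1 (0.51, 0.062) or 3 (0.50, 0.055) was left out. Psmb9 had 70.4, 48.5 and 50.8 CPM with Runx2 and 27.2, 24.8 and 16.5 CPM with Runx1, against 23.2, 19 and 20.8 CPM in OEV cultures; the Runx1 libraries lay on both sides of the OEV ones and the gene did not pass the test (0.12 ± 0.19, adjusted p = 0.62). Psmb9 and Tap1 are transcribed away from each other from overlapping promoter windows.

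The Parp9, Dtx3l and Parp14 proteins modify targets with ADP-ribose and ubiquitin, and all 3 genes rose. Parp14 had 52.3, 58.5 and 50.3 CPM with Runx2 and 6.79, 7.44 and 8.93 CPM with Runx1, against 1.68, 1.91 and 1.2 CPM in OEV cultures. Among the other effectors, Rtp4 had 249, 228 and 223 CPM with Runx2, 73, 65.4 and 63.5 CPM with Runx1 and 4.68, 5.44 and 6.48 CPM in OEV cultures. Ifi44 had 54.4, 59.4 and 56.1 CPM with Runx2, 3.81, 3.65 and 4.3 CPM with Runx1 and 0.725, 0.671 and 0.7 CPM in OEV cultures. The 3 groups were apart for each of these genes, and Ifi44 differed by 3.85 ± 0.11 between Runx2 and Runx1 (adjusted p = 3e-09, edgeR). Bst2 (tetherin), which holds budding virions on the cell, rose by 4.74 with Runx2 and 2.01 with Runx1, and the death-promoting Xaf1 by 6.11 and 3.52.

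**Figure D3:**
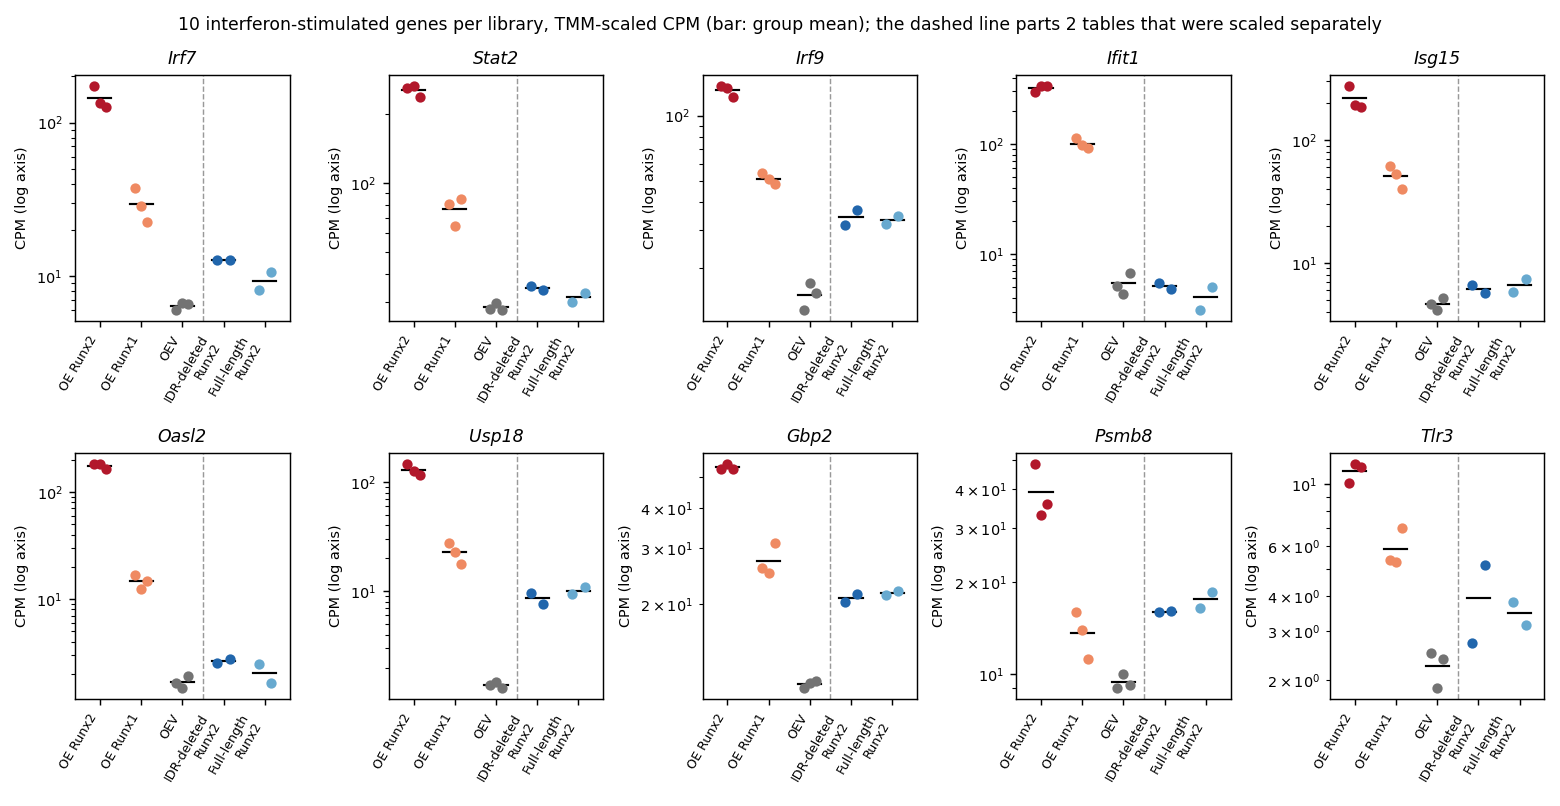
CPM per library (log axis) of the genes followed through every comparison, in Runx2-overexpressing, Runx1-overexpressing and OEV cultures, with the group mean as a bar. Past the dashed line are the cultures with IDR-deleted and with full-length Runx2, which were counted and scaled separately. For Ifit1 the Runx2-overexpressing libraries lie between 296 and 337, the Runx1-overexpressing libraries between 90.8 and 112 and the OEV libraries between 4.36 and 6.75.

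The genes with an ISRE core in the sequences printed above and in the other windows had a median log2 difference of 5.29 with Runx2 and 2.42 with Runx1, beside 2.79 and 1.52 for the 16 without one. The 8 genes with a GAS core had medians of 3.38 with Runx2 and 1.58 with Runx1, beside 5.11 and 2.56 for the 24 without one. For the 4 genes with a RUNX core they were 4.65 and 2.27, beside 4.42 and 1.92 for the 28 without one. These are descriptions with no test. Oasl2, with no ISRE core in its window, was above the ISRE-core median of 5.29 with Runx2 (6.69), and Stat2, with one, was below it (3.17).

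The rest of the pathway was read from lists of 65 further genes, of which 40 were tested in these cultures. With Runx2, 26 of them rose and 5 fell, and with Runx1 19 rose and 6 fell; of all genes 31.3% rose and 29.6% fell with Runx2, and 28.2% rose and 25.8% fell with Runx1. Among 21 interferon genes, counts were few: 7 had any count with Runx2, 4 with Runx1 and 2 in OEV cultures. The sums per library ran from 30 to 48 with Runx2, from 6 to 18 with Runx1 and from 0 to 2 in OEV cultures. Ifnz had 6, 6 and 16 of these counts with Runx2 and 10, 12 and 0 with Runx1, against 0 in each OEV library. Ifnb1, the interferon that most cells make first, had 16, 6 and 4 counts with Runx2 and 0 in each Runx1 and OEV library. With the OEV group taken at a floor of 3 counts in all, that was 7.9 times the OEV level. Such a ratio to the floor leaves out the counting error of the Runx2 libraries and any counting of read mates one by one. Ifna4 had 20, 16 and 17 counts with Runx2 and 0, 2 and 3 with Runx1, against 0 in each OEV library. With Runx2 that was 16.1 times the same floor, though reads of this gene are hard to tell from those of its near copies. Of 6 receptor chains, 3 rose with Runx2 (Ifnar2 by 0.44, Ifngr2 by 0.32 and Il10rb by 0.54) and 1 with Runx1 (Ifngr2 by 0.47), while Ifngr1, a chain of the interferon gamma receptor, fell in both groups (-0.83 with Runx2 and -0.63 with Runx1). In the sensing arm, the RNA sensor Ddx58 (RIG-I; 2.92 and 1.51) and the DNA-sensing adaptor Sting1 (2.82 and 2.19) rose, while the adaptors Mavs (-0.96 and -0.54) and Ticam1 (-0.88 and -0.70) fell. Among brakes on the response, Socs1 rose by 2.76 and 3.20 and the RNA editor Adar by 2.78 and 1.37, and the phosphatase Ptpn6 fell (-1.65 and -1.09). All 11 tested genes of MHC class I and peptide loading rose with Runx2; with Runx1 8 rose and 2 fell, H2-K1 (-0.42) and H2-T23 (-0.95), which belong to a multigene family whose reads can be shared.

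Cell-type markers moved alongside. Stromal markers summed to 557 to 604 CPM with Runx2, 311 to 358 with Runx1 and 78 to 109 in OEV cultures, and 9 macrophage markers to 11.9 to 13.2, 5.24 to 14.5 and 2.6 to 6.91 CPM. Adipocyte markers summed to 8973 to 9728, 14669 to 15805 and 13489 to 14472 CPM. T cell and B cell markers stayed at or under 0.37 CPM in these cultures. The part of cell makeup in the members' rise was not tested.

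Cultures labelled as knockouts of both factors also had higher interferon-stimulated transcripts than their control. Of 39 genes tested, 27 were called higher and none lower in the cultures labelled double knockout, with a median log2 difference of 1.29 against 0.02 over all genes, where 8.27% of 13551 genes were called higher. DESeq2 called 30 of the 39, and 12.3% of all its genes higher. In the cultures labelled Runx1 knockout 4 were called (Oasl2, Ifit1, Rtp4 and Igtp; 0.406% of all genes were called higher), and in those labelled Runx2 knockout 2 (Ifit1 and Igtp; 0.177%). The median log2 differences were 0.61 and 0.70, against -0.01 over all genes in each. DESeq2 called 14 of the 39 higher in each single knockout, against 1.31% and 1.08% of all genes. Every library lay above every control library for 24 and 28 of the 39 genes, against 10.5% and 8.87% of all genes tested. Leaving out each library in turn gave 0 to 2 calls for the label Runx1 knockout, 0 of them without control replicate 2, and 0 in every case for the label Runx2 knockout. Oas2 and Mx1 were too low to test. The 3 comparisons share their 3 control libraries.

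In these cultures the transcription factors rose in part. Irf7 had 14.7, 10.3 and 13.5 CPM in cultures labelled double knockout, 7.39, 8.2 and 8 CPM in those labelled Runx1 knockout and 7.02, 5.71 and 6.06 CPM in those labelled Runx2 knockout, against 3.99, 3.79 and 4.97 CPM in controls. All 9 knockout libraries lay above the 3 controls, and the double knockout passed the test for this gene (1.59 ± 0.17, adjusted p = 0.00015, edgeR). The labelled Runx1 knockout was not called for Irf7 in the main edgeR fit. It passed by DESeq2 (0.90, adjusted p = 0.00041). It also passed in edgeR fits with DESeq2's size factors (adjusted p = 0.049), without the count filter (0.041) and with the compared groups alone (0.023). With a replicate block, or with any library left out, it did not pass. Irf9 had 26.8, 22 and 30.2 CPM in labelled double knockouts, 16.3, 16.1 and 19 CPM in labelled Runx1 knockouts and 19.7, 16.8 and 18.8 CPM in labelled Runx2 knockouts, against 10.7, 11.2 and 12 CPM in controls, and rose in labelled double knockouts (1.22 ± 0.14, adjusted p = 0.00022). Stat2 had 29.5, 39.8 and 46.8 CPM in labelled double knockouts, 32.2, 33.2 and 36.1 CPM in labelled Runx1 knockouts and 30.2, 29.9 and 33.7 CPM in labelled Runx2 knockouts, against 29.6, 29.6 and 29 CPM in controls. Double-knockout replicate 1 lay among the controls for Stat2, which did not pass the test (0.40 ± 0.15, adjusted p = 0.094, edgeR) but passed without that library (0.57, 0.00047) and by DESeq2 (0.41, 0.049). Irf1 had 58.3, 45.1 and 45.8 CPM in labelled double knockouts against 47.7, 46.3 and 52.2 CPM in controls, in overlapping ranges (0.03, adjusted p = 0.89).

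Among sensors, Dhx58 had 11.4, 9.35 and 13.6 CPM in labelled double knockouts, 7.39, 5.49 and 5.02 CPM in labelled Runx1 knockouts and 5.7, 5.74 and 6.27 CPM in labelled Runx2 knockouts, against 4.63, 3.16 and 3.22 CPM in controls (double knockout 1.65 ± 0.21, adjusted p = 0.00043, edgeR). Tlr3 had 3, 4.04 and 4.35 CPM in labelled double knockouts, 1.36, 2.87 and 2.83 CPM in labelled Runx1 knockouts and 2.69, 3.03 and 3 CPM in labelled Runx2 knockouts, against 0.97, 1.5 and 1.84 CPM in controls. It passed in labelled double knockouts (1.40 ± 0.31, adjusted p = 0.011; 0.065 with the compared groups alone), and the Runx1 knockout overlapped the controls. Ifih1 rose by 1.28 in labelled double knockouts. Zbp1 rested on few counts, 21, 34 and 49 in labelled double knockouts, 4, 8 and 19 in labelled Runx1 knockouts and 10, 6 and 6 in labelled Runx2 knockouts, against 43, 1 and 4 in controls. Control replicate 1 was as high as the double knockout, and without it the double-knockout difference passed (3.68, adjusted p = 0.017), against 0.88 and 0.53 with it.

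Ifit1 and Igtp were the genes called in all 3 comparisons. Ifit1 had 12, 8.25 and 11.9 CPM in labelled double knockouts, 4.09, 4.19 and 5.23 CPM in labelled Runx1 knockouts and 4.31, 3.41 and 4.08 CPM in labelled Runx2 knockouts, against 1.8, 1.26 and 0.964 CPM in controls. The double-knockout libraries were the highest and the controls the lowest, with no overlap (3.00 ± 0.25, 1.76 ± 0.25 and 1.56 ± 0.25; adjusted p 2.7e-05, 0.0095 and 0.034, edgeR). Ifit3b had 3.94, 2.37 and 2.84 CPM in labelled double knockouts, 1.39, 1.91 and 2.26 CPM in labelled Runx1 knockouts and 2.21, 1.71 and 2.79 CPM in labelled Runx2 knockouts, against 3.59, 1.38 and 1.81 CPM in controls, with overlap throughout. Oasl2 had 4.85, 5.01 and 7 CPM in labelled double knockouts, 2.97, 3.64 and 3.94 CPM in labelled Runx1 knockouts and 2.54, 1.18 and 2.1 CPM in labelled Runx2 knockouts, against 0.79, 0.722 and 0.753 CPM in controls. It was above the controls in all 9 knockout libraries and was called in labelled double knockouts (2.89 ± 0.29) and labelled Runx1 knockouts (2.21 ± 0.29). Oas1a and Oasl1 also rose in labelled double knockouts, by 4.36 and 2.54. Oas3 had 12, 2 and 23 counts in labelled double knockouts, 12, 6 and 0 in labelled Runx1 knockouts and 6, 2 and 0 in labelled Runx2 knockouts, against 0, 12 and 0 in controls, too few to separate the groups at this depth.

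Isg15 had 29.9, 12.3 and 15.3 CPM in labelled double knockouts, 4.42, 5.61 and 5.9 CPM in labelled Runx1 knockouts and 6.02, 4.09 and 5.76 CPM in labelled Runx2 knockouts, against 3.95, 2.17 and 2.41 CPM in controls. All knockout libraries were above the controls, and the double knockout passed (2.76 ± 0.34, adjusted p = 0.00036, edgeR). Usp18 had 8.55, 4.93 and 5.72 CPM in labelled double knockouts, 3.57, 4.87 and 6.08 CPM in labelled Runx1 knockouts and 7.17, 5.65 and 5.34 CPM in labelled Runx2 knockouts, against 2.87, 3.22 and 3.7 CPM in controls; its rise in labelled double knockouts was smaller (0.96 ± 0.25, adjusted p = 0.024) and was lost without control replicate 1 (0.88, 0.074) or 2 (0.95, 0.08) and with the compared groups alone (0.97, 0.11). Herc6 rose by 1.20 in labelled double knockouts. Rsad2 had 2.16, 2.08 and 4.21 CPM in labelled double knockouts, 0.727, 0.185 and 0.722 CPM in labelled Runx1 knockouts and 0.767, 0.765 and 1.14 CPM in labelled Runx2 knockouts, against 0.646, 0.301 and 0.301 CPM in controls (double knockout 2.77 ± 0.51, adjusted p = 0.004). Cmpk2 rose by 2.76 in labelled double knockouts, a call lost without control replicate 1 (2.33, adjusted p = 0.053, edgeR) or 3 (2.37, 0.069) or double-knockout replicate 3 (2.09, 0.05) and with the compared groups alone (2.77, 0.13). Mx2 had 1.61, 0.755 and 2.17 CPM in labelled double knockouts, 0.727, 0.863 and 0.812 CPM in labelled Runx1 knockouts and 1.33, 0.53 and 0.12 CPM in labelled Runx2 knockouts, against 0.79, 0.301 and 0.151 CPM in controls, and overlapped them (1.89 ± 0.73, adjusted p = 0.1).

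All 5 interferon-inducible GTPases rose in labelled double knockouts, by 0.78 to 1.63. The Gbp7 call was lost without any 1 of the 3 controls (adjusted p 0.052, 0.072 and 0.087, edgeR) or double-knockout replicate 3 (0.86, 0.057) and with the compared groups alone (0.15), and the Gbp3 call with the compared groups alone (0.066). Gbp2 had 19.4, 19.9 and 22.1 CPM in labelled double knockouts, 13.2, 10.6 and 14.5 CPM in labelled Runx1 knockouts and 15.7, 13.3 and 15.6 CPM in labelled Runx2 knockouts, against 10.1, 7.19 and 7.95 CPM in controls. Igtp had 11.4, 10.1 and 16.7 CPM in labelled double knockouts, 8.12, 7.95 and 7.94 CPM in labelled Runx1 knockouts and 8.88, 8.71 and 8.97 CPM in labelled Runx2 knockouts, against 4.38, 3.64 and 4.31 CPM in controls. Both genes were above the controls in every knockout library. Igtp passed in all 3 comparisons (1.63 ± 0.18, 0.96 ± 0.18 and 1.11 ± 0.18; adjusted p 0.0002, 0.047 and 0.038, edgeR).

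None of the 3 antigen-processing genes passed in any knockout culture. Psmb8 had 36.1, 15.7 and 16.2 CPM in labelled double knockouts, 18.6, 20.2 and 15.2 CPM in labelled Runx1 knockouts and 19, 20.7 and 16.4 CPM in labelled Runx2 knockouts, against 19.6, 16.1 and 17.1 CPM in controls. Double-knockout replicate 1 was high for Psmb8, for Psmb9 (68.2 CPM, with 35.5 and 32 in replicates 2 and 3) and for Bst2 (112 CPM, with 45 and 48.7); its adipocyte markers summed to 21244 CPM, with 12026 and 11531 in the others. Without that library 29 genes were called, of 40 then tested. Tap1 had 63.4, 68.4 and 75.1 CPM in labelled double knockouts, 78.5, 77 and 80.5 CPM in labelled Runx1 knockouts and 75.6, 68.4 and 66.9 CPM in labelled Runx2 knockouts, against 63.5, 71.8 and 72.5 CPM in controls (double knockout -0.01, adjusted p = 0.97, edgeR).

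Parp14 had 4.33, 5.98 and 8.36 CPM in labelled double knockouts, 3.66, 4.38 and 5.81 CPM in labelled Runx1 knockouts and 6.96, 4.89 and 5.52 CPM in labelled Runx2 knockouts, against 3.45, 2.05 and 2.56 CPM in controls, and was called in labelled double knockouts (1.22 ± 0.28), a call lost without control replicate 2 (1.06, adjusted p = 0.068, edgeR) or 3 (1.19, 0.054) and with the compared groups alone (1.23, 0.1). Dtx3l had 8.45, 16.2 and 18.5 CPM in labelled double knockouts and 14.7, 14.8 and 14.5 CPM in controls, on both sides of them (-0.02, adjusted p = 0.95, edgeR). Rtp4 had 41.4, 17 and 27 CPM in labelled double knockouts, 8.36, 10.2 and 11 CPM in labelled Runx1 knockouts and 10.2, 9.1 and 7.56 CPM in labelled Runx2 knockouts, against 3.88, 2.83 and 3.61 CPM in controls. The 3 knockout groups were all above the controls, and the gene was called in labelled double knockouts (3.05 ± 0.29) and labelled Runx1 knockouts (1.52 ± 0.28). Ifi35, the member of the remaining effectors that was not called, had 44.5, 22.5 and 24 CPM in labelled double knockouts and 23.3, 24.1 and 19.8 CPM in controls.

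**Figure D4:**
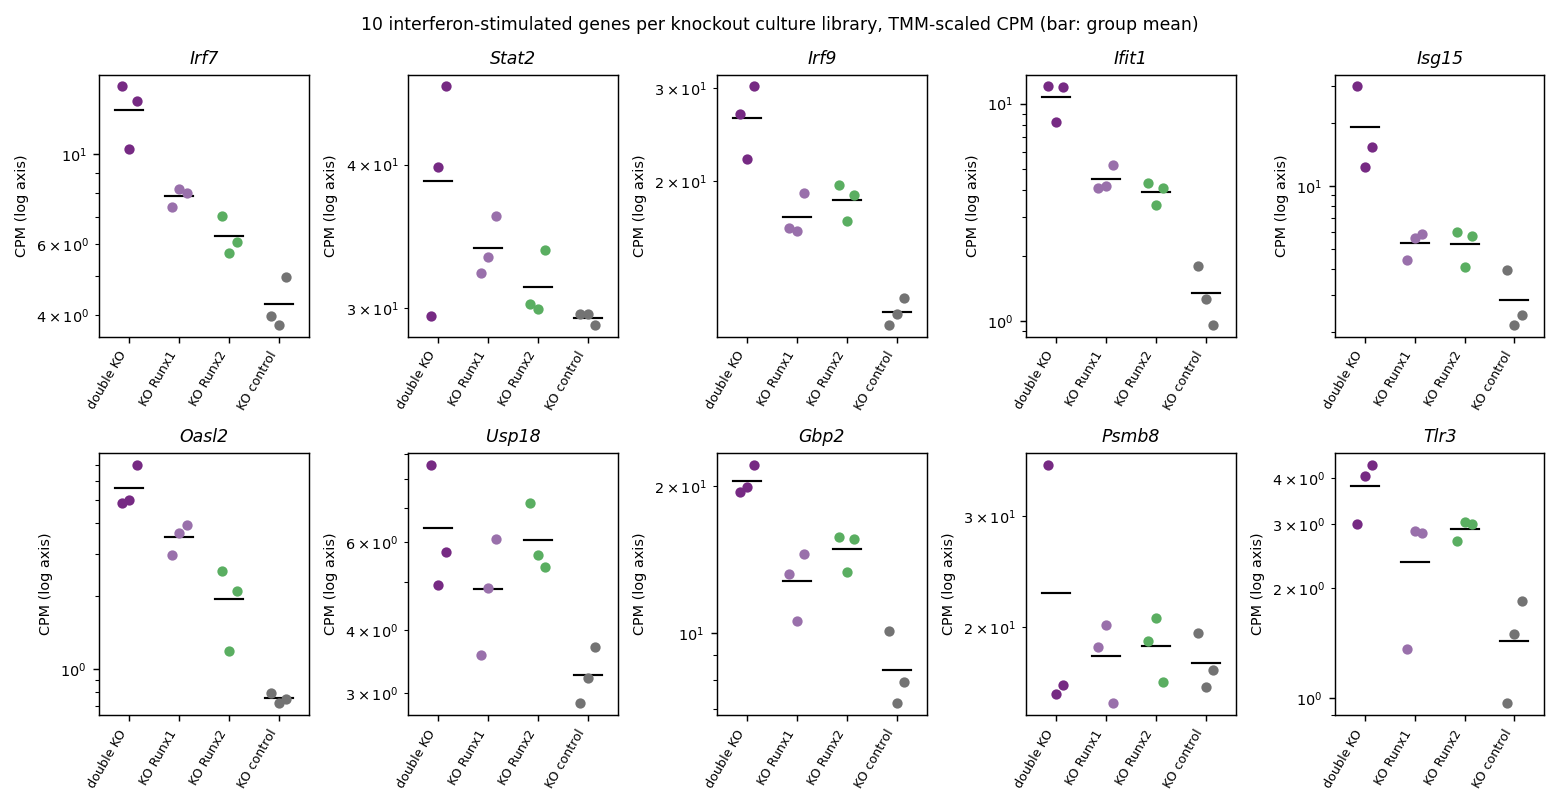
CPM per library (log axis) of the genes followed through every comparison, in cultures labelled double knockout, Runx1 knockout, Runx2 knockout and knockout control, with the group mean as a bar. For Ifit1 the double-knockout libraries lie between 8.25 and 12, the single knockouts between 3.41 and 5.23 and the controls between 0.964 and 1.8.

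The double knockout was set against the sum of the 2 single knockouts with an interaction term, on the log2 scale. No member's departure from that sum passed the test (0 of 39 called by edgeR and by DESeq2, and 3 at an unadjusted p under 0.05), where 0.0443% of all genes did, and the median departure was -0.08. The departures ran from -2.22 to 2.99, so the single-gene estimates were wide, and a missed threshold does not show that the effects add. Of the pathway lists, 39 genes were tested, and in labelled double knockouts 5 rose and 3 fell, beside 8.27% of all genes called higher and 7.01% lower. Ddx58 (0.90), Irf5 (2.03), B2m (0.63) and H2-Q4 (2.10) rose, and the receptor chains Ifnar1 (-0.51) and Ifngr1 (-0.56) and the kinase Jak2 (-0.49) fell. The fifth that rose, the interferon lambda receptor Ifnlr1, had 8, 16 and 16 counts in labelled double knockouts against 0, 4 and 4 in controls. None was called in either single knockout by edgeR, where 2 and 4 had an unadjusted p under 0.05 and DESeq2 called 1 in each. The 21 interferon genes had at most 4 counts per library in any knockout or control culture. T cell and B cell markers were at or under 0.419 CPM and macrophage markers at or under 3.51 CPM in all 4 groups. Brown adipocyte markers summed to 326 to 446 CPM in labelled double knockouts and 343 to 376 CPM in labelled Runx2 knockouts. They summed to 293 to 300 CPM in labelled Runx1 knockouts and 239 to 307 CPM in controls. Stromal sums overlapped the controls, at 38.2 to 82.3 CPM in labelled double knockouts against 63.3 to 75 CPM. The part of these markers' cells in the members' rise was not tested.

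Set side by side, the overexpression and the knockout cultures both stood above their own controls. They were counted in separate tables with separate controls, so the levels were not tested against each other. The median over members of the log2 level relative to the control mean was 4.66, 4.31 and 4.33 in the Runx2-overexpressing libraries, 1.84, 1.74 and 1.67 in the Runx1-overexpressing ones, 1.17, 1.12 and 1.36 in the double-knockout ones, 0.49, 0.59 and 0.67 in the Runx1-knockout ones and 0.61, 0.49 and 0.63 in the Runx2-knockout ones. The controls lay between -0.05 and 0.03 in the overexpression table and between -0.07 and 0.10 in the knockout table.

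**Figure D5:**
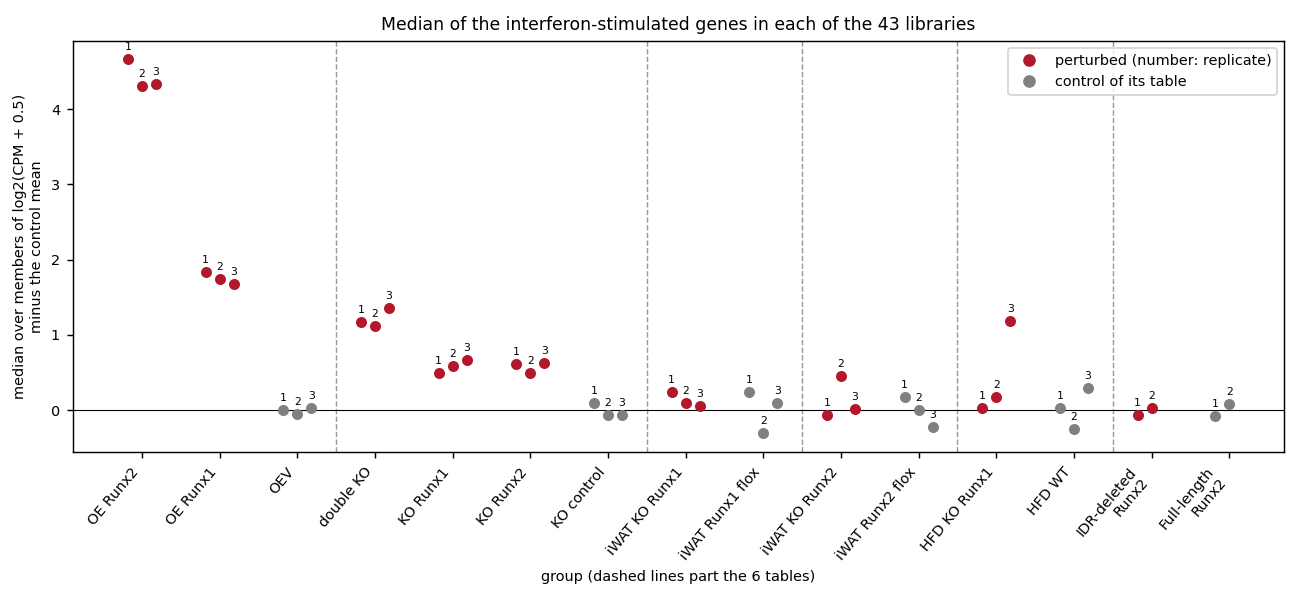
Median over the tested members of log2 CPM (with 0.5 CPM added) relative to the mean of the control libraries of the same table, 1 point a library, by group. The Runx2-overexpressing libraries stand at 4.31 to 4.66 and the double-knockout libraries at 1.12 to 1.36, and in fat the knockout and control libraries overlap.

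The cultures with altered Runx2 had no culture without added Runx2 beside them. Of 37 genes tested between Runx2 lacking the stretch labelled IDR and full-length Runx2, 1 was called lower, Parp14, and none higher, against 2.4% and 1.51% of all genes. Parp14 had 7.45 and 9.06 CPM without the stretch and 11 and 13.7 CPM with full-length Runx2 (-0.58 ± 0.16, adjusted p = 0.028, edgeR; 0.088 by DESeq2). The call was lost without full-length replicate 2 (-0.42, adjusted p = 0.47) or replicate 1 without the stretch (-0.45, 0.33), fits in which the lone library is assumed to vary like the other group. The median log2 difference was -0.04, with 18 genes above 0 and 19 below. DESeq2 called none, and 6 had an unadjusted p under 0.05. Ifit1 had 5.48 and 4.82 CPM without the stretch and 3.13 and 5.05 CPM with full-length Runx2, Isg15 6.65 and 5.66 against 5.81 and 7.45, and Usp18 9.6 and 7.65 against 9.35 and 10.9, all overlapping. Irf7 had 12.7 and 12.8 CPM without the stretch and 8.08 and 10.6 CPM with full-length Runx2 (0.45, adjusted p = 0.11). Stat2, Irf9, Oasl2, Gbp2, Psmb8 and Tlr3 differed by between -0.13 and 0.36 and did not pass. Of 38 pathway genes tested, edgeR called 4 lower and none higher, beside 2.4% and 1.51% of all genes, and DESeq2 called 3 lower. Runx2 itself was lower without the stretch, at 115 and 143 CPM against 293 and 294.

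The full-length Runx2 cultures can be placed beside the Runx2-overexpressing ones, in another table and untested. Runx2 stood at 293 and 294 CPM in full-length cultures and at 281, 332 and 313 CPM in Runx2-overexpressing cultures. Runx1 was not alike, at 8.38 and 8.04 CPM in full-length cultures and 28.9, 29.4 and 32.6 CPM in Runx2-overexpressing cultures. Ifit1 stood at 3.13 and 5.05 CPM in full-length cultures and at 296, 333 and 337 CPM in Runx2-overexpressing cultures, where OEV controls had 5.14, 4.36 and 6.75. Oasl2 stood at 2.48 and 1.64 CPM in full-length cultures and at 182, 182 and 162 CPM in Runx2-overexpressing cultures, against 1.65, 1.48 and 1.9 in OEV cultures. These 2 genes overlapped the OEV range in full-length cultures, as 9 of the 41 did; 29 lay above it in both full-length libraries and 3 below it. Usp18, well above it, stood at 9.35 and 10.9 CPM in full-length cultures and at 146, 125 and 116 CPM in Runx2-overexpressing cultures, against 1.38, 1.48 and 1.3 in OEV cultures. Parp14 stood at 11 and 13.7 CPM in full-length cultures and at 52.3, 58.5 and 50.3 CPM in Runx2-overexpressing cultures, against 1.68, 1.91 and 1.2 in OEV cultures. The median over the 41 of the ratio to the OEV mean, with 0.5 CPM added, was 1.53 in full-length and 21 in Runx2-overexpressing cultures, and 40 of the 41, all but Irf1, were lower in both full-length libraries than in every Runx2-overexpressing one. Isg15 stood at 5.81 and 7.45 CPM in full-length cultures and at 277, 193 and 187 CPM in Runx2-overexpressing cultures, against 4.61, 4.16 and 5.2 in OEV cultures. Brown adipocyte markers summed to 154 to 163 CPM in full-length cultures and to 3.88 to 5.89 CPM in Runx2-overexpressing cultures, and stromal markers to 39.3 to 39.8 and 557 to 604 CPM. Their part in the gap, and that of Runx1, was not tested.

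In Adipoq-cre Runx1 knockout fat, 4 of the 41 genes were higher than in Runx1 flox fat and none was lower, where 4.45% of 15896 genes were called higher. The median log2 difference was 0.14, against -0.00 over all genes. Every knockout library lay above every flox library for 10 of the 41, against 17.3% of all genes. Igtp had 62.1, 71.1 and 61.6 CPM in knockout fat and 41.4, 32.3 and 38.2 CPM in flox fat (0.80 ± 0.14, adjusted p = 0.011, edgeR). Irf1 had 137, 171 and 152 CPM in knockout fat and 112, 90.7 and 99.8 CPM in flox fat (0.60 ± 0.14, adjusted p = 0.029). Neither gene's groups overlapped. Isg15 had 9.26, 10.7 and 7.97 CPM in knockout fat and 3.47, 2.99 and 5.44 CPM in flox fat (1.23 ± 0.28, adjusted p = 0.03). Ifit3b, with its near-identical neighbour, had 8.04, 5.11 and 3.72 CPM in knockout fat and 2.1, 2.35 and 2.55 CPM in flox fat (1.27 ± 0.34, adjusted p = 0.047). The knockout libraries were again all above the flox ones for both genes.

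Some of these calls were lost whichever library was left out. Igtp lost its call in these fits only without knockout replicate 2 (0.73, adjusted p = 0.074, edgeR). Leaving out each library in turn gave counts of 0 to 3 called, with 0 without knockout replicate 2, 1 without knockout replicate 3 or flox replicate 2, 2 without knockout replicate 1 or flox replicate 3, and 3 without flox replicate 1, where Isg15 and Ifit3b were lost and Usp18 was gained (0.84, adjusted p = 0.036, edgeR). Without the 3 libraries over 1000 CPM of skeletal muscle markers, which leaves 1 knockout library assumed to vary like the flox ones, none was called. Other members of the same families did not pass. Ifit1 had 18.1, 9.74 and 10.2 CPM in knockout fat and 13.9, 8.44 and 7.87 CPM in flox fat (0.33, adjusted p = 0.54, edgeR). Irf7 had 53.2, 58.3 and 58.6 CPM in knockout fat and 52, 36.4 and 49.1 CPM in flox fat (0.31, 0.24), and Usp18 27.3, 23.3 and 20.9 against 21.8, 13.9 and 12.6 (0.56, 0.14). Stat2, Irf9, Oasl2, Gbp2, Psmb8 and Tlr3 differed by between 0.03 and 0.25. Ifi35 came nearest to the threshold (0.43, adjusted p = 0.053). Of the 43 pathway genes tested, Mavs (1.13) and Irf3 (0.51) rose and the kinase Tbk1 fell (-0.61), about the share of all genes, of which 4.45% were called higher and 3.03% lower. Brown adipocyte markers summed to 188 to 289 CPM in knockout fat and 39.1 to 76.5 CPM in flox fat, skeletal muscle markers to 209, 14181 and 6624 CPM and 14.5, 6322 and 70.5 CPM, and endothelial markers to 663, 452 and 502 CPM and 713, 973 and 791 CPM, lower in every knockout library, while T cell, B cell and macrophage sums overlapped between the groups. Their part was not tested.

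In Adipoq-cre Runx2 knockout fat, edgeR called none of the 41 genes against Runx2 flox fat, as it called 0% of the 15574 genes tested higher. An unadjusted p under 0.05 was reached by 13 of the 41, and DESeq2 called 8 higher (Irf7, Ifit1, Ifit3, Ifit3b, Oasl2, Mx2, Rtp4 and Ifi44), where it called 3.82% of all genes higher. Every knockout library was above every flox library for 12 of the 41, against 13.7% of all genes. Irf7 had 93.5, 135 and 67.4 CPM in knockout fat and 46.9, 49.5 and 57 CPM in flox fat (0.95 ± 0.26, adjusted p = 0.22, edgeR). Ifit1 had 12.8, 20.8 and 19.3 CPM in knockout fat and 8.39, 5.8 and 8.8 CPM in flox fat (1.20 ± 0.27). Ifit3 had 30.7, 61.3 and 42.7 CPM in knockout fat and 17.8, 14.1 and 20.4 CPM in flox fat (1.37 ± 0.28). The groups did not overlap for these 3 genes, nor for Oasl2 (18.3, 26.5 and 13.8 CPM in knockout fat, 8.51, 8.28 and 13 CPM in flox fat). Mx2 had 6.99, 6.82 and 7.79 CPM in knockout fat and 4.3, 3.59 and 4.55 CPM in flox fat. Antigen processing lay the other way: Psmb9 had 49.6, 61.4 and 56 CPM in knockout fat and 133, 72.4 and 69.1 CPM in flox fat (-0.72 ± 0.27, adjusted p = 0.23), and Tap1 had 106, 142 and 91.2 CPM in knockout fat and 255, 226 and 98 CPM in flox fat.

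A single flox library decided these counts. Without Runx2 flox replicate 3, which held 6426 CPM of skeletal muscle markers, 14 of the 41 were called: 10 higher, from Ifit3b (1.79, adjusted p = 0.0033, edgeR) and Ifit3 (1.50, 0.0028) to Ifih1 (0.74, 0.012), and 4 lower, Irf1 (-0.53, 0.028), Psmb9 (-0.88, 0.014), Tap1 (-1.08, 0.0024) and Mx1 (-1.08, 0.0056). In that fit 20.9% of all genes were called higher and 19.1% lower, so 10 of 41 higher was near the share of all genes; leaving libraries out for their muscle transcripts was chosen after the data were seen. The library left out was also the flox library nearest to knockout fat in B cell, T cell and adipocyte markers, and the farthest from it in neutrophil markers (7.89 to 8.2 CPM in knockout fat, 20.9 CPM in that library and 13.4 and 11.9 CPM in the other flox libraries). B cell markers summed to 184 to 410 CPM in knockout fat and to 1321, 1299 and 221 CPM in flox replicates 1, 2 and 3, and adipocyte markers to 50068 to 60447 CPM in knockout fat and to 18294, 20612 and 45062 CPM in those flox replicates. T cell markers summed to 227 to 298 CPM in knockout fat and 358 to 865 CPM in flox fat. Brown adipocyte markers summed to 149 to 813 CPM in knockout fat and 22.1 to 71.3 CPM in flox fat. A list of 5 genes taken as markers of plasmacytoid dendritic cells, which make type I interferon, summed to 181 to 220 and 239 to 396 CPM. The same 5 genes summed to 56.6 to 127 CPM in the brown adipocyte cultures, so the list is not specific to those cells. What part any of these cell types had in the members' values was not tested. Stat2, Irf9, Isg15, Usp18, Gbp2, Psmb8 and Tlr3 differed by between -0.32 and 0.70 over all libraries, and none of 42 pathway genes was called (8 at an unadjusted p under 0.05; 2 by DESeq2).

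In the HFD set, no member was called by edgeR in Runx1 knockout fat against wild-type fat, where 0.0465% of 15058 genes were called higher. DESeq2 called 1, Mx2, and 0.352% of all genes higher, and 10 members had an unadjusted p under 0.05. The median log2 difference was 0.58 against 0.01 over all genes, with 37 of the 41 above 0, but every knockout library was above every wild-type library for 3 genes (Mx2, Gbp2 and Parp9), against 5.55% of all genes. Mx2 had 5.4, 5.37 and 20.7 CPM in knockout fat and 3.75, 2.32 and 3.48 CPM in wild-type fat (1.72 ± 0.51, adjusted p = 0.19 by edgeR and 0.0098 by DESeq2). Oas2 had 35.2, 40.2 and 169 CPM in knockout fat and 24.3, 23 and 36.4 CPM in wild-type fat. Ifit1 had 22.6, 23.2 and 74.1 CPM in knockout fat and 21.8, 13.3 and 29.3 CPM in wild-type fat. Knockout replicate 3 was the highest library of the set for each of these genes. It was also highest for Irf7 (64.9, 122 and 257 CPM in knockout fat, 169, 85.2 and 124 CPM in wild-type fat), for Stat2 (60.5, 56.8 and 157 CPM, against 49.6, 50.5 and 65.5 CPM), for Isg15 (9.63, 11.3 and 46.3 CPM, against 15.6, 5.37 and 10.5 CPM), for Usp18 (13.2, 15.1 and 48.5 CPM, against 16.3, 13.5 and 18.8 CPM) and for Oasl2 (42.9, 63 and 136 CPM, against 34.3, 21.1 and 59.2 CPM). Irf9 had 45.6, 50.7 and 102 CPM in knockout fat and 53.2, 50.7 and 58.9 CPM in wild-type fat. Psmb8, in contrast, overlapped throughout (55.3, 64.8 and 103 CPM, against 94.9, 107 and 84.7 CPM).

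The library medians over members were 0.03, 0.18 and 1.19 in HFD knockout fat and 0.03, -0.25 and 0.30 in wild-type fat, and without knockout replicate 3 the median log2 difference was 0.10. Tlr3, an exception, was highest in knockout replicate 1 (37.9, 23.3 and 35.3 CPM in knockout fat, 21, 23.6 and 24.8 CPM in wild-type fat), and Gbp2 varied little (147, 145 and 152 CPM, against 132, 104 and 134 CPM). Of 41 pathway genes tested, Tlr9 (-2.10) and Ptpn6 (-2.04), which B cells and other leukocytes express, fell, beside 2.07% of all genes. B cell markers summed to 2.02 to 3.28 CPM in knockout fat and 156 to 313 CPM in wild-type fat, and T cell markers to 3.38 to 14.1 and 69.2 to 183 CPM. Interferon gamma had 0, 4 and 4 counts in knockout fat and 6, 14 and 4 counts in wild-type fat. The authors' deposited table of changed genes for this comparison holds 403 genes and 0 of the 41 members. The authors' deposited table for Runx2 lacking the IDR holds 341 genes and 0 of the 41. It does hold the pathway genes Stat3 (-0.50), Samhd1 (-0.47) and Nlrc5 (-0.44), all lower without the stretch. Both deposited lists are labelled with a fold-change cut-off, not the same for each, while calls here use adjusted p alone.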

How the data were processed

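Polyadenylated RNA of 43 libraries was sequenced, and 6 tables of counts per gene were used as deposited. Per the submitters' processing notes the authors used fastp, STAR and featureCounts with the mouse build mm39; versions are not given in the sources used here. The authors also deposited tables of changed genes with log2 fold changes and p-values for 2 of the comparisons, from which values are named as theirs; 10 per-sample columns in them were not used. Groups were taken from the labels.

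Each table was fitted over all its groups with edgeR 4.0.16 (R 4.3.3): filterByExpr with its default filter on low counts, TMM scaling and robust quasi-likelihood tests, with Benjamini-Hochberg adjustment over all genes tested and calls at an adjusted p under 0.05. The fit was tested on simulated data. Whether the single knockouts add up to the double one was tested with an interaction term. Levels are CPM scaled by TMM; errors are standard errors of the fit. Alternatives were DESeq2 1.42.0, its size factors, no count filter, a replicate block, the compared groups alone, each library left out, and libraries with muscle transcripts left out. Intervals at 95% for ratios of counts are exact and cover counting error only. Promoter windows were RefSeq's, on build GRCm38.p6, which is not the authors' build. Of the pathway lists, 1 gene is not reported here. The members, gene lists and tests were chosen with earlier results of these data known. For each comparison, values per library are given for the member of each role with the lowest adjusted p and, where its call differed, the one with the highest, and for 10 members followed throughout.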

Additional observations from a re-analysis of the deposited data

How the results depend on the processing

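No call of a member changed direction under any alternative run, and another scaling moved the median of all genes by under 0.1. In overexpressing cultures the calls were stable: leaving out each library gave 37 to 40 called with Runx1, 40 to 41 with Runx2 and 40 to 41 between them, with medians of 1.88 to 2.26, 4.91 to 5.13 and 2.17 to 2.41. Without the libraries with cardiac muscle transcripts, which leaves OEV replicate 3 as the only control, the medians were 2.41 with Runx1 and 4.99 with Runx2. In labelled double knockouts 22 to 29 were called over the libraries left out, and 18 with the compared groups alone. Counts in the labelled single knockouts depended on the setting. For Runx1 and for Runx2, DESeq2 called 14 and 14, no count filter gave 7 and 4, and the compared groups alone gave 11 and 9. Leaving out each library gave 0 to 2 for Runx1 (0 without control replicate 2), with medians of 0.55 to 0.86, and 0 in every case for Runx2. With a replicate block 2 and 0 were called, and 1 in Adipoq-cre Runx1 knockout fat; it moved no other count by over 1.5 times. No comparison had deviations of libraries with the same replicate number correlated above 0.1 in every pair. They ran from 0.09 to 0.28 for labelled double knockouts and from -0.04 to 0.46 for Adipoq-cre Runx2 knockout fat. With 2 or 3 libraries a group, this cannot show whether the replicate numbers pair the libraries. In Adipoq-cre Runx1 knockout fat 0 to 3 were called over the libraries left out, and 0 without the libraries with skeletal muscle transcripts. In Adipoq-cre Runx2 knockout fat DESeq2 called 8, and 0 to 14 were called over the libraries left out, 14 of them without flox replicate 3, which is also the library left out for muscle transcripts. In the HFD set DESeq2 called 1. Between the forms of Runx2 DESeq2 called 0, and leaving out each library gave 0 to 2, with medians of -0.08 to 0.07. The causes were not tested. Groups of 2 or 3 libraries limit which differences can pass, and genes with under about 20 counts are limited by counting error.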
